A study of Mus musculus with 2 samples.

Results

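The Nr4a genes encode 3 orphan nuclear receptors, Nr4a1, Nr4a2 and Nr4a3, and were taken by gene symbol out of 55536 annotated genes. They were chosen by a readout of these same libraries, the ratio of their counts between the 2 libraries, so that ratio and the order of the members on it are given as a description with no test. All 3 symbols were found, and all 3 passed the filter of a mean of at least 1 CPM (counts scaled to a common library size), as did 14780 genes in all.

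The data were total RNA-seq of whole adrenal gland from male B6CASTF1/J mice, an F1 cross of C57BL/6J and CAST/EiJ, aged 36 days, for which the labels name no treatment. Ribosomal RNA had been depleted and ERCC spike-in RNA added to 300 ng of RNA. The 2 libraries, replicates 1 and 2, form 1 group with no contrast. The labels number them as biological replicates 1 and 2. Other labels disagree on whether the libraries came from different animals, so the spread between them may be biological or technical. They held 35813366 and 30628771 estimated counts, of which 0.843% and 1.5% were spike-ins.

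Nr4a proteins bind DNA as monomers, as dimers of themselves or, for Nr4a1 and Nr4a2, with a retinoid X receptor. Bulky side chains fill the pocket that holds the ligand in other nuclear receptors, so their activity is set mainly by how much protein is made and how it is modified. They are immediate early genes: cAMP, calcium and serum signals switch on their transcription through factors already in the cell. In the adrenal cortex, ACTH, which signals through cAMP, and angiotensin II, which signals through calcium, are known inducers. Nr4a2 is also known for the making and upkeep of dopamine neurons.

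All 3 members were higher in replicate 1 than in replicate 2. Nr4a1 stood at 350.39 TPM, a count scaled for transcript length and depth, in replicate 1 and at 4.09 TPM in replicate 2. Nr4a2 stood at 22.46 and 1.53 TPM and Nr4a3 at 26.49 and 5.98 TPM in replicates 1 and 2. The members therefore differed from each other in the size of the gap as well as in level, and the member with the most RNA was Nr4a1 in replicate 1 and Nr4a3 in replicate 2.

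The windows around the RefSeq start sites of the members are shown because Nr4a genes are known targets of CREB, the cAMP-responsive factor. Any link between these windows and the ratios between the libraries was not tested. Each window holds 250 bases before and 50 bases after the start, in RefSeq's GRCm38.p6 tables, at chr15:101266596-101266895 on the plus strand for Nr4a1, chr2:57123954-57124253 on the minus strand for Nr4a2 and chr4:48045055-48045354 on the plus strand for Nr4a3. The RefSeq start of Nr4a1 is that of transcript Nr4a1-201 and that of Nr4a2 is shared with Nr4a2-203, while the one used for Nr4a3 is not the start of any of its M21 transcripts. Capitals mark TGACG, the core that CREB binds, or its reverse complement CGTCA.
Nr4a1: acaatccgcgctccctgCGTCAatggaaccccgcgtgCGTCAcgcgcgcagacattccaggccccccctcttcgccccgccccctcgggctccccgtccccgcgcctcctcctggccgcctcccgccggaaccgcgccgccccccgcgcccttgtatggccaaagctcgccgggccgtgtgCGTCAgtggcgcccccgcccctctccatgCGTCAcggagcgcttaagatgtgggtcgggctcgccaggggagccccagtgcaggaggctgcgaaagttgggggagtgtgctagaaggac
Nr4a2: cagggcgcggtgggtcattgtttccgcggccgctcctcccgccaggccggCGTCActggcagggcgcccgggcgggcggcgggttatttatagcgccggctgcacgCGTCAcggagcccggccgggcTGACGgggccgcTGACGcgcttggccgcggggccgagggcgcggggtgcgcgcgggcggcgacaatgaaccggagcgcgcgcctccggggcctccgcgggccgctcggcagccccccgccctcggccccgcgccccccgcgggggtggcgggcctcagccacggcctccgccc
Nr4a3: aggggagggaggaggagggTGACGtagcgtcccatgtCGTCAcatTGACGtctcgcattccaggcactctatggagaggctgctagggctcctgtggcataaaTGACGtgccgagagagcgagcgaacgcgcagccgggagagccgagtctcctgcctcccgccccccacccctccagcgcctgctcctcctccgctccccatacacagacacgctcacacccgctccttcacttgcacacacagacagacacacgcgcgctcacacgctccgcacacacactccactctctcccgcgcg

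Each of the 3 windows held 4 matches to TGACG on either strand. Among 32817 RefSeq windows of the same length, 20.8% held at least 1 match and 0.232% held 4 or more. Counted from the start site, the matches in Nr4a1 began at bases -233, -213, -69 and -40, all of them on the minus strand. The matches in Nr4a2 began at -200, -144, -123 and -111, and those in Nr4a3 at -231, -213, -205 and -147, with both strands used in each. The full palindrome TGACGTCA was in none of the 3 windows and in 1.79% of all windows. The CArG box, to which serum response factor binds, and the MEF2 site, to which the calcium-regulated Mef2 factors bind, were each in none of the 3 and in 1.63% and 0.558% of all windows. The monomer site of the family itself, AAAGGTCA, was also in none of the 3, against 1.51% of all windows, as was CAAGGTCA, the monomer site of Nr5a1, against 1.56%. TATAAA was in the Nr4a2 window alone, in 1 copy on the strand opposite to the one printed, where it reads TTTATA, and in 13.6% of all windows. GGGCGG, an Sp1 site, was present 3, 5 and 1 times in Nr4a1, Nr4a2 and Nr4a3 and in 35.6% of all windows. G and C made up 72.3%, 81.7% and 64.7% of the 3 windows. The 32817 windows were not matched to them in G and C, so the shares above do not allow for base composition. A match describes letters in a window and is not evidence that a factor bound there. Only 1 start per member was searched. Nr4a2-201 and Nr4a1-202, described below, start elsewhere, and no window at their starts was searched. Each of those starts took most of its gene's counts in replicate 1 by at least 1 of the 2 deposited transcript estimates.

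The coding exon that carries the second zinc finger of the DNA-binding domain is shown for a different reason: it belongs to the most conserved domain of the family, and reads that fit 2 members could have been shared between their counts. The exon has 130 bases in each gene, and capitals mark the positions where the 3 genes are not identical. The sequences come from GENCODE M21 transcripts on mm10, at chr15:101271736-101271865 on the plus strand (exon 3 of Nr4a1-201), chr2:57110637-57110766 on the minus strand (exon 4 of Nr4a2-201) and chr4:48055930-48056059 on the plus strand (exon 4 of Nr4a3-201).
Nr4a1: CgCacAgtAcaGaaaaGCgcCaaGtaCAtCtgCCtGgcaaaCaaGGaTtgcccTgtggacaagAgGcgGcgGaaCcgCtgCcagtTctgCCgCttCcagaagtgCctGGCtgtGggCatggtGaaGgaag
Nr4a2: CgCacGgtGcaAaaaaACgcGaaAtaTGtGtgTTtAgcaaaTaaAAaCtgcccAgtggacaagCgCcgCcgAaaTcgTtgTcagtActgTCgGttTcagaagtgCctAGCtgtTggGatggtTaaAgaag
Nr4a3: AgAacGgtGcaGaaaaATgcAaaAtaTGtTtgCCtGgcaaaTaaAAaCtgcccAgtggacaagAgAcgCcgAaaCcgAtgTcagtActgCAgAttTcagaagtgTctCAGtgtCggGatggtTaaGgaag

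Of the 130 positions, 90 (69.2%) were identical in all 3 genes. Nr4a2 and Nr4a3 were the most alike pair in this exon, at 83.1% identity and with a longest identical run of 27 bases. Nr4a1 was 74.6% identical to Nr4a2 and 75.4% to Nr4a3, with a longest run of 11 bases in each pair. Over the whole coding sequences, which have 1803, 1794 and 1881 bases in Nr4a1, Nr4a2 and Nr4a3, identity was 62.0% for Nr4a1 with Nr4a2, 59.8% for Nr4a1 with Nr4a3 and 64.0% for Nr4a2 with Nr4a3. The deposited gene counts of all 3 members were whole numbers with a posterior SD of 0 in both libraries, so the estimation divided no read between a member and another gene. No annotated gene overlapped any member.

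Nr4a1 (Nur77, ENSMUSG00000023034.7) spans 20527 bases of the plus strand at chr15:101254269-101274795. Replicate 1 gave it 28730 counts, against 335 in replicate 2. After TMM scaling, which allows for depth and composition, the ratio of replicate 1 over replicate 2 was 70.2 (exact 95% limits 63.0 to 78.4, log2 6.13). These limits, here and in what follows, cover counting error only, and with 1 library on each side there is no test. Among the 14780 genes the log2 ratio had a median of -0.01 and an SD of 0.98, 51 genes were at least 4-fold higher in replicate 1, and 9 were at least 10-fold higher. Nr4a1 ranked 4 of all tested genes and 1 of the protein-coding ones by this ratio.

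Nr4a2 (Nurr1, ENSMUSG00000026826.13) spans 17174 bases of the minus strand at chr2:57106830-57124003. It had 2548 counts in replicate 1 and 136 in replicate 2, a ratio of 15.3 (12.9 to 18.4, log2 3.93), and ranked 3 of the protein-coding genes. Nr4a3 (Nor-1, ENSMUSG00000028341.9) spans 41295 bases of the plus strand at chr4:48045153-48086447. It had 5032 and 1144 counts in replicates 1 and 2, a ratio of 3.60 (3.38 to 3.84, log2 1.85), and ranked 51. So 3 of 3 members were past 2-fold toward replicate 1, where 1.75% of tested genes were, and 0 of 3 were past it toward replicate 2, where 5.09% were. Since the ratio chose the members, nothing is read from that count.

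Replicate 2 also held far more RNA of pancreas and liver marker genes than replicate 1. The 6 acinar pancreas markers (Pnlip, Ctrb1, Cela2a, Cpa1, Prss2, Cel) summed to 0.24 TPM in replicate 1, where 2 of them were at 0, and to 7254 TPM in replicate 2. The 5 islet markers summed to 0.05 TPM, with 4 at 0, in replicate 1 and to 90.6 TPM in replicate 2. The 6 liver markers summed to 13.4 and 111 TPM. Markers of the labelled tissue were high in both libraries: the 6 of adrenal cortex, with Star and Cyp11a1 among them, summed to 12904 and 7144 TPM and the 6 of the medulla, with Th and Pnmt, to 1433 and 1675 TPM in replicates 1 and 2. Erythroid markers summed to 2282 and 1055 TPM. These TPM count all annotated RNA, and the gaps change in size when they are rescaled over nuclear protein-coding genes alone. Rescaled, the cortex markers summed to 41562 and 30740, the medulla markers to 4615 and 7208, and the erythroid markers to 7348 and 4541. In whole glands, fewer cells of a type and less RNA per cell cannot be told apart, and the part of any of these differences in the Nr4a ratios was not tested.

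The second transcript file of each library, estimated directly from the reads, gave the same picture of the levels. It gave 28799 and 344 counts of Nr4a1, 2824 and 148 of Nr4a2 and 5539 and 1269 of Nr4a3 in replicates 1 and 2. The scaled ratios there were 70.3, 16.0 and 3.66 for Nr4a1, Nr4a2 and Nr4a3. Its TPM were higher, at 536 and 8.06 for Nr4a1, 40.6 and 3.22 for Nr4a2 and 44.9 and 14.3 for Nr4a3, while the order of the members in each library was the same. The deposited TPM of the first estimate count all annotated RNA. Rescaled over nuclear protein-coding genes alone, Nr4a1 stood at 1129 and 17.6, Nr4a2 at 72.3 and 6.58, and Nr4a3 at 85.3 and 25.7 in replicates 1 and 2.

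**Figure D1:**
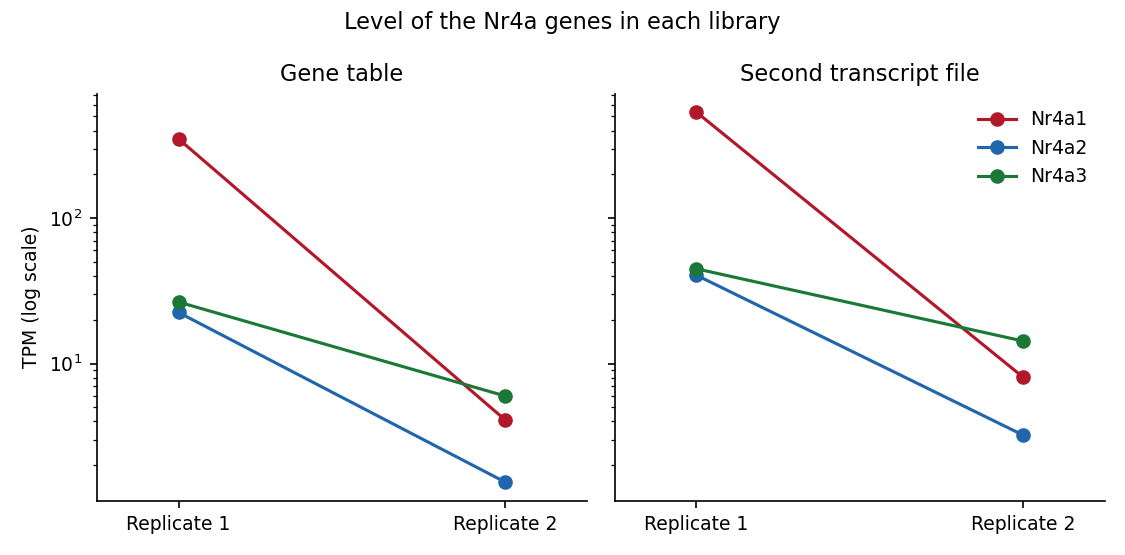
Level of Nr4a1, Nr4a2 and Nr4a3 in TPM (log axis) in replicates 1 and 2, from the gene table on the left and the second transcript file on the right; each point is 1 library, and a line joins the 2 points of a gene. Nr4a1 is the highest of the 3 in replicate 1 and lies below Nr4a3 in replicate 2 in both panels.

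The makeup of the family followed from these levels. Together the members held 399 TPM in replicate 1 and 11.6 TPM in replicate 2. Nr4a1 made up 87.7% of that sum in replicate 1 and 35.3% in replicate 2. Nr4a3 made up 6.63% and 51.6%, and Nr4a2 5.62% and 13.2%. Per length, Nr4a1 was 13.2 times the level of Nr4a3 in replicate 1 (12.8 to 13.6) and 0.684 times in replicate 2 (0.604 to 0.773), so the order of these neighbours turned over and the limits excluded 1 on opposite sides. Nr4a1 was above Nr4a2 in both libraries, by 15.6 times (15.0 to 16.3) in replicate 1 and 2.67 times (2.19 to 3.29) in replicate 2. Nr4a2 was the lowest member in both, at 0.848 times (0.808 to 0.889) and 0.256 times (0.212 to 0.306) the level of Nr4a3. Over both libraries the means were 177 ± 245 TPM for Nr4a1, 16.2 ± 14.5 for Nr4a3 and 11.995 ± 14.8 for Nr4a2 (SD, n = 2), and no neighbours in that order differed beyond their spread.

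Against other genes, each member ranked higher in replicate 1 than in replicate 2. Nr4a1 ranked 85 by TPM among 22015 nuclear protein-coding genes in replicate 1 and 8344 in replicate 2. Nr4a3 ranked 2350 and 6813, and Nr4a2 ranked 2828 and 11019.

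Nuclear receptors are ligand-regulated or orphan transcription factors, and 38 of the 49 mouse genes of the superfamily reached 1 TPM in each library. Nr4a1 was first of the 49 in replicate 1 and ranked 28 in replicate 2. Nr4a3 ranked 6 and 24, and Nr4a2 ranked 7 and 35. The members held 41.2% of the TPM of all nuclear receptors in replicate 1 and 2.88% in replicate 2. Next to Nr4a1 in mean level came Nr5a1 (SF-1, the master regulator of steroid-producing cells), at 159.83 and 52.55 TPM in replicates 1 and 2, a ratio of 2.27. The clock repressors Nr1d1 and Nr1d2, Nr2f2 (COUP-TFII), the oxysterol receptor Nr1h2, the thyroid hormone receptor Thra, the fat-cell regulator Pparg, Nr2f6 and Rora made up the other genes of the 10 highest by mean TPM. These 8 lay between 15.5 and 38.7 TPM in every library. Of the 36 tested receptors outside the family, 1 (Nr5a1) was past 2-fold toward replicate 1 and 3 toward replicate 2. Over all tested genes 1.75% and 5.09% were, and the median log2 ratio of the 36 was -0.15. The 3 were Hnf4a, the fatty acid receptor Ppara and the mineralocorticoid receptor Nr3c2, named after their values were seen. Toward replicate 1 the next receptor after the members was Nr5a1, with a log2 ratio of 1.18, against 1.85 for Nr4a3.

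**Figure D2:**
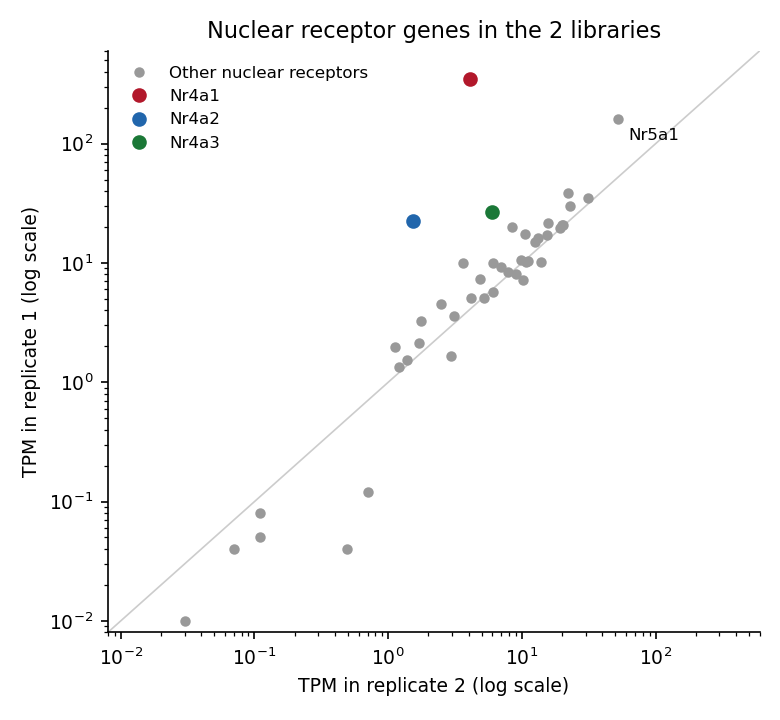
TPM of nuclear receptor genes in replicate 1 (vertical, log axis) against replicate 2 (horizontal, log axis); each point is 1 gene, the line marks equal TPM, and the 5 receptors at 0 in a library are not drawn. The 3 Nr4a genes lie farthest above the line, Nr4a1 at 350.39 and 4.09 TPM, while most other receptors lie close to it.

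Reads were also assigned to the annotated transcripts, which differ in where they start. Nr4a1 has 2 main protein-coding transcripts, Nr4a1-201 and Nr4a1-202, whose starts lie 12577 bases apart. They differ in 126 of the 2477 bases of Nr4a1-201 and 202 of the 2553 bases of Nr4a1-202. The first transcript file gave Nr4a1-201 337.38 TPM in replicate 1 and 2.96 TPM in replicate 2, which was 96.3% and 72.2% of the gene's TPM. It gave 98.8% of the gene's counts in replicate 1 and 82.7% in replicate 2 to the start of Nr4a1-201. The start of Nr4a1-202 took 0.730% (0.636 to 0.836) in replicate 1 and 15.0% (11.3 to 19.2) in replicate 2. The second file did the reverse, placing 99.5% and 97.7% of the counts on Nr4a1-202 and 0.0690% and 0.0175% on the start of Nr4a1-201. Which start was in use is therefore not settled by these files, though each file named 1 leading transcript for both libraries. The leading transcript differed between the files for 24.3% of genes in replicate 1 and 25.9% in replicate 2, among 10349 nuclear protein-coding genes with at least 2 transcripts and 100 counts in each library.

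A retained intron form of Nr4a1, Nr4a1-204, was estimated much alike in both files. The first gave it 129 and 7.90 counts in replicates 1 and 2, and the second gave it 118 and 8. It made up 0.448% (0.375 to 0.533) of the gene's counts in replicate 1 and 2.36% (1.04 to 4.65) in replicate 2, with limits that did not overlap. Its own ratio was 13.3 (6.50 to 31.2), below the 70.2 of the whole gene.

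Nr4a2 was the member whose leading transcript changed between the libraries, and both files gave the change. Nr4a2-201 starts 8965 bases downstream of Nr4a2-203 within the gene. In replicate 1 it had 1844 counts in the first file and 2293 in the second. In replicate 2 both files listed it at 0, out of 136 and 148 counts of the gene. Nr4a2-203 had 443 and 125 counts in replicates 1 and 2 in the first file and 1.38 and 107 in the second. The deposited 95% credibility limits of Nr4a2-201 were 12.2 to 16.7 TPM in replicate 1 and at most 0.256 TPM in replicate 2, where the posterior mean was 11.5 counts with an SD of 10.7. Those of Nr4a2-203 were 1.31 to 6.11 and 0.426 to 1.01 TPM, and did not reach the level of Nr4a2-201 in replicate 1.

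Grouped by start site, the starts of Nr4a2-201 and Nr4a2-203 showed different ratios. The downstream start, of Nr4a2-201 and a short noncoding transcript, took 74.7% (73.0 to 76.4) of the gene's counts in replicate 1 and 7.10% (3.58 to 13.1) in replicate 2. In the second file these shares were 84.0% and 9.57%. The upstream start, of Nr4a2-203 and Nr4a2-206, a form annotated as degraded by nonsense-mediated decay, took 24.3% (22.6 to 26.0) and 92.2% (86.0 to 95.9), and 5.70% and 72.3% in the second file. Counts at the downstream start were 161-fold higher in replicate 1 (84.5 to 325), from 1903 and 9.66 counts, and 140-fold higher in the second file. The deposited posterior mean counts, an alternative added after the data were seen, gave 1873 and 21.6, a ratio of 71.0, and shares of 73.5% and 15.9%, so the size of this ratio rests on the few reads assigned in replicate 2. Those at the upstream start were 4.04-fold higher (3.34 to 4.95), from 618 and 125 counts, 4.81-fold by the posterior means and 1.26-fold in the second file. Among the same 10349 genes the leading transcript differed between the libraries in 11.5% by the first file, in 13.2% by the second, and in 1.61% in the same way by both. The upstream start is the one in the RefSeq window printed above. The 2 transcripts share most of their sequence, 321 bases being found in Nr4a2-201 and not in Nr4a2-203 and 175 the other way round, and replicate 2 held few reads.

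Nr4a3-201 led in both libraries and both files. In the first file it had 4301 and 776 counts in replicates 1 and 2, a ratio of 4.54 (4.20 to 4.90), and in the second 5048 and 853, a ratio of 4.97. Nr4a3-203, which starts 3961 bases farther downstream, had 709 and 348 counts, a ratio of 1.67 (1.47 to 1.90), and in the second file 412 and 374, a ratio of 0.925. Its share of counts was 14.1% (13.1 to 15.1) in replicate 1 and 30.4% (27.8 to 33.2) in replicate 2, and 7.44% and 29.5% in the second file. The short noncoding Nr4a3-204 had 22.2 and 18.4 counts, a ratio of 0.989 (0.512 to 1.98). In both files, then, the shares of the Nr4a2-201 and Nr4a3-201 starts were higher in replicate 1 than in replicate 2. The limits here treat estimated counts as counted reads and leave out the error of assigning them.

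**Figure D3:**
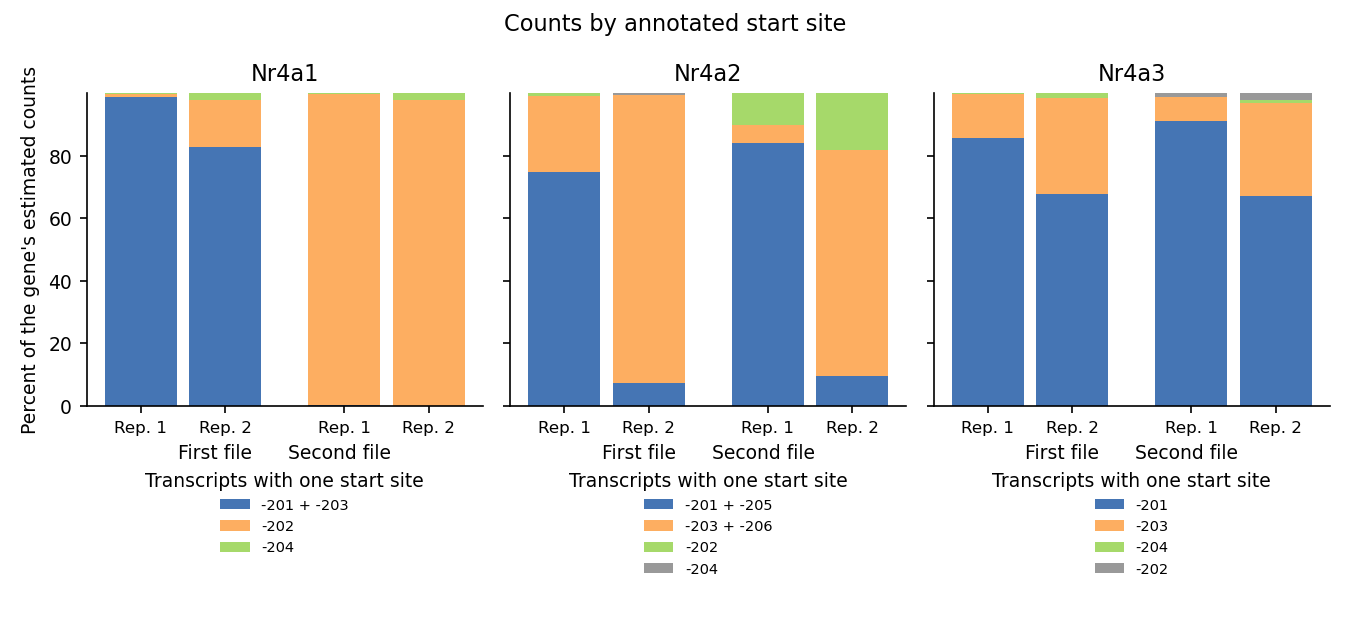
Percent of each gene's estimated counts (vertical axis) by annotated start site in replicates 1 and 2, for the first and second transcript files; colours are transcripts that share a start. The 2 files disagree on Nr4a1, while both give the Nr4a2-201 start 74.7% or more of Nr4a2 in replicate 1 and under 10% in replicate 2.

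The genes next to the members were compared to see how far the difference extended. Grasp, a synaptic scaffold protein gene 21513 bases away toward lower coordinates from Nr4a1 and on the same strand, had 1240 counts in replicate 1 and 178 in replicate 2, a ratio of 5.70 (4.87 to 6.71). Atg101, an autophagy gene 9477 bases away on the other side, had 1119 and 375 counts, a ratio of 2.44 (2.17 to 2.75). The next gene beyond Grasp, the activin receptor gene Acvr1b, had 393 and 366 counts, a ratio of 0.879 (0.761 to 1.02). The next beyond Atg101, 6030408B16Rik, had 4 and 5 counts. Of the 9 tested protein-coding genes within 500 kb of Nr4a1, 2 were past 2-fold toward replicate 1, beside 1.75% of all tested genes. Their median log2 ratio was 0.08, and the distance was chosen after the nearest neighbours had been seen. Around Nr4a2, the mitochondrial glycerol-3-phosphate dehydrogenase gene Gpd2 was the 1 tested gene in that distance, with 4531 and 5581 counts and a ratio of 0.665 (0.639 to 0.691). Kcnj3, Galnt13 and Galnt5, the other nearest genes, had at most 25 counts in a library. Around Nr4a3, 0 of 6 were past 2-fold, and their log2 ratios ran from -0.51 to 0.28. The nearest, the syntaxin gene Stx17, had 1608 and 1498 counts, and Erp44 had 1432 and 967. Sec61b and Alg2, the nearest on the other side, had ratios of 1.15 and 1.20.

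**Figure D4:**
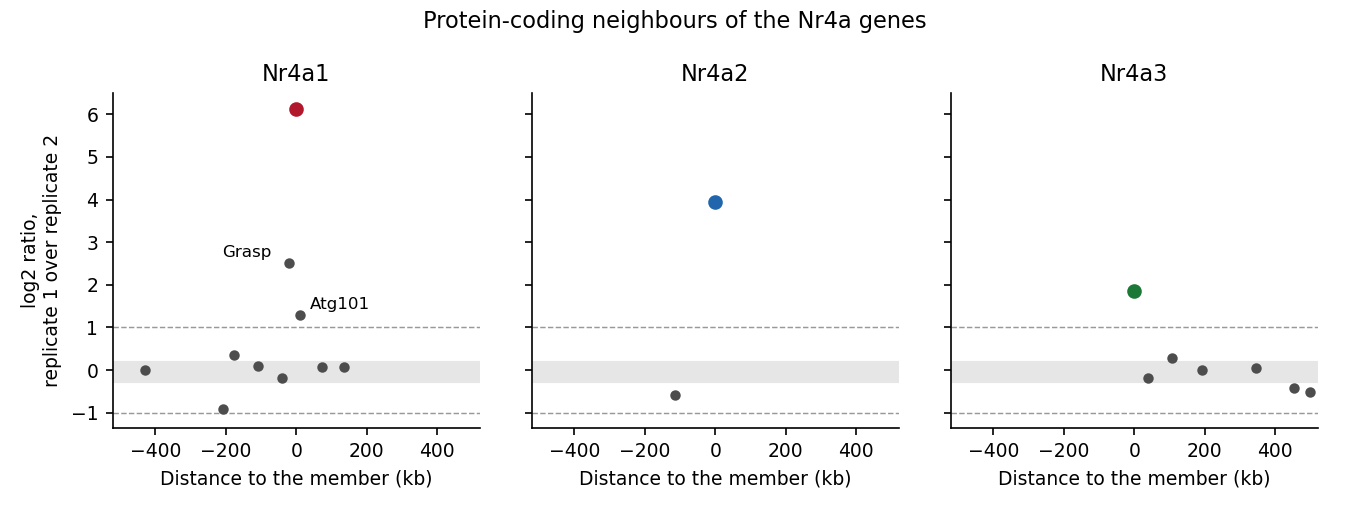
Log2 ratio of replicate 1 over replicate 2 (vertical axis) of the Nr4a gene and of tested protein-coding genes within 500 kb, by distance from the gene in kb (horizontal axis); the grey band is the middle 50% of all tested genes and dashed lines mark 2-fold. Grasp and Atg101 beside Nr4a1 lie above the upper line, and no tested gene near Nr4a2 or Nr4a3 does.

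Among 10642 protein-coding genes with a mean of at least 5 CPM, the 3 whose log2 ratio over the 2 libraries was nearest to that of a member were found by rule. With 2 libraries this likeness is a distance between 2 ratios. For Nr4a1 and for Nr4a2 they were the same genes. Sik1, a salt-inducible kinase that restrains CREB coactivators, had 5645 counts in replicate 1 and 361 in replicate 2, a ratio of 12.8 (11.5 to 14.3). Plk3, a stress-responsive polo-like kinase, had 1087 and 84 counts, a ratio of 10.6, and Fosb, a Fos family subunit of AP-1, had 744 and 61, a ratio of 9.99. Their log2 ratios lay 0.26, 0.54 and 0.62 from that of Nr4a2, but 2.46, 2.73 and 2.82 from that of Nr4a1, which had no close neighbour. For Nr4a3 they were Gm13889 (885 and 204 counts), Prrg4, a vitamin K-dependent membrane protein gene (786 and 183), and the BMP type I receptor gene Acvr1 (3978 and 879), each within 0.05 of its log2 ratio.

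The lists that follow group the genes around the family by role. Over all tested genes, 1.75% were past 2-fold toward replicate 1, 5.09% toward replicate 2, and 48.9% were higher in replicate 1. Of 15 genes that carry or restrain the ACTH and cAMP signal, 3 were past 2-fold toward replicate 1 and 0 toward replicate 2, and 10 of 15 were higher in replicate 1. The median log2 ratio was 0.04, against -0.01 over all tested genes. The 3 were Sik1, Crem, which encodes the cAMP-inducible repressor ICER among other forms (4708 and 1023 counts, ratio 3.77), and Mrap, which brings the ACTH receptor to the cell surface (6992 and 2534, ratio 2.26). Sik1 and Crem are themselves known CREB targets. The stimulatory G protein gene Gnas and the protein kinase A subunit gene Prkar1a, also high in level, had ratios of 0.881 and 1.42. The receptor for ACTH itself, Mc2r, had 5290 and 3524 counts, a ratio of 1.23.

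Of 11 genes of calcium and serum-response signalling, 0 were past 2-fold in either direction, and the median was 0.03. The angiotensin II receptor gene Agtr1a had a ratio of 1.12, and Mef2d, Camk2d and Mef2a had ratios of 1.04, 1.02 and 0.979. The largest ratios in size were those of Camk4 (0.638), Camk1d (0.861), Srf (1.13) and Mef2c (1.13). Of 15 partners and coregulators, 0 were past 2-fold, and the median was 0.10. Rcor1, a corepressor recruited by Nr4a2 in mouse glia, had the largest ratio, 1.59, followed by Ncoa3 at 1.36 and Nr0b1 (DAX-1) at 1.32. Trim28, Ncor1 and Ep300 were among the highest in level, with ratios of 1.15, 1.07 and 1.02. The retinoid X receptor genes Rxra, Rxrb and Rxrg had ratios of 0.879, 0.869 and 0.859.

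Of 7 genes reported as Nr4a targets in steroid-producing cells, some of them in human or rat cells, 2 were past 2-fold toward replicate 1. The share over all tested genes was 1.75%. Higher in replicate 1 were 7 of 7, beside 48.9% of all tested genes, and the median was 0.67. Cyp17a1, the 17-hydroxylase that mouse adrenals express little, had 192 counts in replicate 1 and 71 in replicate 2, a ratio of 2.21 (1.68 to 2.95). Akr1c18, a progesterone-inactivating enzyme gene of the X-zone, had 60 and 23 counts, a ratio of 2.14 (1.30 to 3.62), but a log2 ratio of 0.60 in the second file, under 2-fold. Star, which carries cholesterol into mitochondria, stood at 5580 and 2793 TPM, a ratio of 1.54. Cyp21a1, the 21-hydroxylase, had a ratio of 1.29, the aldosterone synthase Cyp11b2 1.60, Hsd3b1 1.16 and Hsd3b6 1.62. Several of these also mark the cortex, and the 6 cortex markers had a median log2 ratio of 0.39, with 6 of 6 higher in replicate 1. The 5 markers of the zona glomerulosa, a cortex layer, include Cyp11b2 and Hsd3b6. Their median was 0.67, with 5 of 5 higher in replicate 1. Medians were 0.75 for erythroid, 0.44 for stroma, 0.25 for macrophage and 0.11 for endothelium markers, but -0.34 for adipocyte and -0.46 for medulla markers. Whether the targets differed from these cell types was not tested.

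Of 6 tested genes reported as Nr4a2 targets in mouse dopamine neurons, 0 were past 2-fold and 1 was higher in replicate 1, with a median of -0.21. The tyrosine hydroxylase gene Th, which also marks the medulla, stood at 210 and 184 TPM, a ratio of 0.851. Dlk1, Ddc and Aldh1a1 had ratios of 0.693, 0.733 and 0.882. The seventh gene, the dopamine transporter Slc6a3, had 2 counts in each library and was not tested. The 6 medulla markers had a median of -0.46.

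Of 19 tested immediate early genes outside the family, 9 were past 2-fold toward replicate 1 and 0 toward replicate 2. Over all tested genes the shares were 1.75% and 5.09%. Higher in replicate 1 were 17 of the 19, beside 48.9% of all tested genes, and the median was 0.93. Fosb was followed by the AP-1 subunit Fosl1 (100 and 11 counts, ratio 7.44), the stress factor Atf3 (195 and 43, ratio 3.71) and Ier3 (402 and 109, ratio 3.02). The most abundant were Fosl2, at 136 and 63.8 TPM (ratio 1.72), Jun, at 93.2 and 43.5 TPM (1.60), Jund (1.42) and Klf2 (1.54). The ratios of Nr4a1 and Nr4a2 exceeded those of all 19, while that of Nr4a3 was below those of Fosb and Fosl1 and close to that of Atf3, whose limits of 2.66 to 5.29 included it. This list was known to lie toward replicate 1 when the members were chosen.

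**Figure D5:**
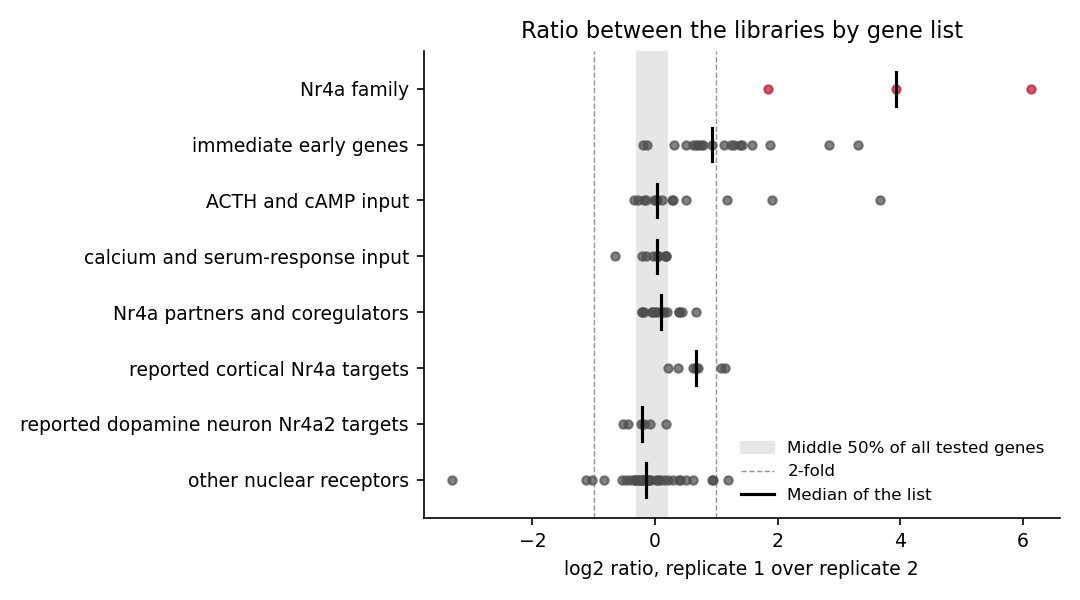
Log2 ratio of replicate 1 over replicate 2 (horizontal axis) for the tested genes of each list; each point is 1 gene, the black bar is the list's median, the grey band is the middle 50% of all tested genes and dashed lines mark 2-fold. The medians are 3.93 for the Nr4a family, 0.93 for immediate early genes and 0.67 for the reported cortical targets, and between -0.21 and 0.10 for the other lists.

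The same RefSeq windows were searched for the genes of these lists. Some genes have several windows and others none, so windows are counted here. Windows were found for 10 of 15 ACTH and cAMP genes, 16 of 22 immediate early genes and 6 of 7 dopamine neuron targets. The like counts were 12 of 15 partners, 8 of 11 calcium genes and 3 of 7 cortical targets. Sik1, Crem, Mrap, Star, Cyp21a1, Cyp17a1 and Cyp11b2 were among the genes with no window, so they were not searched. TGACG was in 11 of the 21 windows of ACTH and cAMP genes, 12 of 20 of immediate early genes, 3 of 8 of reported dopamine neuron targets, 3 of 16 of partners, 2 of 11 of calcium genes and 0 of 3 of reported cortical targets, beside 20.8% of all windows. No window found for these lists had 4 matches, and Prkar1a, Sik3 and Dusp1 each had a window with 3. AAAGGTCA was in a window of Rxra, Rxrg and Ddc.

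The ratios given so far take the bulk of genes as equal between the libraries. Scaling by the spike-ins instead shifted log2 ratios by 0.89 toward replicate 1, less where a count was at or near 0, and the median of all genes to 0.88. On that scale the medians of the other nuclear receptors and of the dopamine neuron targets changed sign, to 0.74 and 0.69, and both stayed under the median of all genes. The medians of the medulla and adipocyte markers also changed sign, to 0.43 and 0.56. So did the direction of the genes named above with a ratio of 0.638 (Camk4) to 1. On that scale 35.7% of tested genes were past 2-fold toward replicate 1, and the counts of the lists changed with it. Past 2-fold toward replicate 1 were 7 of 15 ACTH and cAMP genes, 3 of 11 calcium and serum-response genes, 7 of 15 partners, 7 of 7 reported cortical targets, 1 of 6 reported dopamine neuron targets and 17 of 19 immediate early genes. Of the 36 other nuclear receptors, 10 were past 2-fold toward replicate 1 and 1 toward replicate 2. The 3 Nr4a ratios stayed far above it, at 7.02, 4.83 and 2.74 for Nr4a1, Nr4a2 and Nr4a3.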

How the data were processed

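Per the file headers and the notes deposited with them, the authors estimated expected counts and TPM per gene and transcript from transcriptome alignments to mm10 with GENCODE M21. The deposited tables also hold, as a percent, how TPM divides among transcripts, and 95% credibility limits on TPM, treated here as a signal. A second deposited transcript file per library holds estimated counts and TPM made from the reads themselves. Which programs made them is not given in the sources used here. Libraries were stranded, per the labels' protocols.

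Here, counts of 55536 annotated genes were scaled by TMM (edgeR 4.0.16, R 4.3.3), with 96 ERCC and 26249 other entries left out. Log2 ratios of replicate 1 over replicate 2 had 0.5 added to each count. A mean CPM of 1 and a 2-fold threshold applied. Limits on ratios and shares are exact 95% (Clopper-Pearson, scipy 1.17.1), for counting error only. With 1 library on each side no p-value was computed. The steps were tested on simulated data. DESeq2 1.42.0 size factors, total counts and spike-ins were alternative scalings. Named genes are the members; receptors among the 10 highest by mean TPM; 4 genes by level and 4 by ratio of each list; neighbours, nearest ratios and markers. A few others are named for a count or a comparison, and a gene that the rule would name is not reported here. The members and lists were chosen with earlier results of these data known. Nucleotide identity took the place of the planned protein comparison, which was not run. No columns were left unmapped.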

Additional observations from a re-analysis of the deposited data

How the results depend on the processing

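Of 49 alternatives other than leaving out a replicate, 34 kept a value within its error and 15 did not. For the count of genes 2-fold apart, error meant within 1.5 times. For levels and transcript shares it meant the SD over the 2 libraries, which the gap between them sets. That SD was 245 TPM around 177 for Nr4a1, so 272 TPM in the second file counted as kept. The tally therefore says little of stability for levels and shares. Causes were not tested. Spike-in scaling gave log2 ratios of 7.02 for Nr4a1, 4.83 for Nr4a2 and 2.74 for Nr4a3, and 5508 genes 2-fold apart (5271 higher in replicate 1 and 237 in replicate 2), against 1011 (258 and 753) with TMM, so the balance turned over. That count was 2556 at 1.5-fold, 269 at 4-fold, 7817 with no filter, and 346 (164 and 182) at a mean CPM of at least 5. Rescaled TPM averaged 573 for Nr4a1, 39.5 for Nr4a2 and 55.5 for Nr4a3. In the second file Nr4a1-201 held 0.0100% of the gene's TPM, against 84.2% in the first, with Nr4a1-202 leading in place of Nr4a1-201, and the log2 level of Nr4a1 over Nr4a3 was 3.58 in replicate 1 and -0.82 in replicate 2, against 3.73 and -0.55. Leaving out a replicate returns the other library's value, which says nothing of stability with n = 2: it put Nr4a1 at 4.09 to 350.39 TPM, Nr4a2 at 1.53 to 22.46 and Nr4a3 at 5.98 to 26.49, and the shares of TPM at 72.2% to 96.3% for Nr4a1-201, 0% to 67.0% for Nr4a2-201 and 59.5% to 81.8% for Nr4a3-201. A ratio needs both libraries, so no replicate could be left out of it. No paired analysis was possible because the series has 1 group. Posterior mean counts, added after the data were seen, put the downstream Nr4a2 start at 71.0-fold, against 161. At 136 counts of Nr4a2 in replicate 2, its transcript shares there are known only within wide limits.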
